A study of Mus musculus with 6 samples.

Results

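The genes described here are 9 genes of the red cell lineage, chosen by symbol from the deposited table of 56980 mouse genes: the adult globin genes *Hba-a1*, *Hba-a2*, *Hbb-bs* and *Hbb-bt*, the heme enzyme *Alas2*, the membrane protein gene *Slc4a1*, the transcription factor genes *Klf1* and *Gata1*, and the erythropoietin receptor gene *Epor*. They were measured by RNA-Seq in BM MSCs, the plastic-adherent cells grown from mouse bone marrow, to compare recipients of fecal microbiota from sedentary donors (TranspCtrl, n = 3) and from treadmill-exercised donors (TranspExer, n = 3). All donors and recipients were female mice that had undergone OVX, in the recipients at 8 weeks of age. The recipients first received antibiotics to deplete their own gut bacteria, and FMT then followed by gavage for 8 weeks. The cells came from flushed marrow cultured for 7 days with repeated washes and no described sorting, so the samples could hold several cell types. The labels do not say whether each sample was 1 animal, and the p-values measure the spread between these samples.

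Total counts ranged from 17647682 to 21319228 per sample. At these depths 3 counts, taken as the floor, equalled 0.141 to 0.17 CPM (counts scaled to the library), a limit that covers counting error only. Of the 9 genes, 7 had under 10 counts in every sample and did not pass the low-count filter, and 2, *Epor* and *Gata1*, were among the 15190 genes tested. In the principal component analysis of the tested genes, TranspCtrl replicate 1 stood apart from the other TranspCtrl samples. On the second component, which held 11.9% of the variance, it scored 29.7 against -22.7 and -19.0.

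Red cells develop from progenitors that depend on erythropoietin, a kidney hormone, whose receptor EPOR signals through the kinase JAK2 and the factor STAT5. GATA1 and KLF1 are transcription factors that switch on the genes of the maturing red cell, among them the globins, the heme pathway and the membrane proteins. GATA1 also works in megakaryocytes, eosinophils and mast cells, which makes it less specific to red cells than globins are. In marrow, maturing red cells are normally one of the most abundant cell classes.

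The promoters of the tested genes and of the globin gene with the most counts are shown because GATA factors and factors of the KLF family are known to bind such regions. Each is the 250 bases before the RefSeq transcription start (GRCm38.p6), written 5′ to 3′ on the gene's own strand, and 8 of the 9 genes matched in that table. Capitals mark matches on either strand to AGATAA or TGATAA, the core recognised by GATA factors, and to CCNCNCCC, which covers the CACCC-type element and overlaps many GC-rich boxes.
*Epor* chr9:21963577-21963826 (-): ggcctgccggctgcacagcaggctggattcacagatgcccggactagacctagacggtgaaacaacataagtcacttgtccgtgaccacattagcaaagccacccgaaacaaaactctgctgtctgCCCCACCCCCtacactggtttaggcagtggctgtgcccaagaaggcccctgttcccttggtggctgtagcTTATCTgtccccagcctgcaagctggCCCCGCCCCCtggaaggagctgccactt
*Gata1* chrX:7967911-7968160 (-): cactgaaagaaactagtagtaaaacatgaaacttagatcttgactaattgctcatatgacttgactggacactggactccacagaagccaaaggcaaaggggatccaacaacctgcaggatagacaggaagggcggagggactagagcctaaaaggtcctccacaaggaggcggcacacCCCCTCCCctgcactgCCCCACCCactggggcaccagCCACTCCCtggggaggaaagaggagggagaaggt
*Hba-a2* chr11:32296242-32296491 (+): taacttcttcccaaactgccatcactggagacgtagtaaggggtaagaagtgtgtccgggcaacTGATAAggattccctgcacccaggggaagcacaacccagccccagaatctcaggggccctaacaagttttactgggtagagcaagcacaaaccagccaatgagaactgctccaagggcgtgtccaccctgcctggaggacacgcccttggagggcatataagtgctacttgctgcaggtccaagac
The *Epor* promoter held 1 GATA match, starting at -54 from the transcription start, and 4 matches to CCNCNCCC in 2 runs. The *Gata1* window, whose RefSeq start lies inside the longer GENCODE gene model, held no GATA match and 3 matches to CCNCNCCC, and the *Hba-a2* window held 1 GATA match, at -186, and no match to CCNCNCCC. Of the 32851 mouse promoters of the same length, 16.6% held a GATA match and 45.93% a CCNCNCCC match.

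Adult globin transcripts were close to absent in all 6 samples. *Hba-a1* (ENSMUSG00000069919, chr11:32283511-32284465, GRCm38), which encodes an alpha chain of hemoglobin, had deposited counts of 0, 0 and 5 in TranspCtrl replicates 1 to 3 and of 3.54, 4.94 and 2.48 in TranspExer replicates 1 to 3. *Hba-a2* (ENSMUSG00000069917, chr11:32296489-32297298), the neighbouring alpha globin gene, had 2, 4 and 0 counts in the TranspCtrl samples, against 0.46, 4.06 and 9.52 in the TranspExer samples. Both groups overlapped for both genes, and the value of 9.52 was the highest globin count in any sample. The beta chain genes were lower still. *Hbb-bs* (chr7:103826534-103828096) had 0.24, 0 and 0 counts in the TranspCtrl samples, against 1, 0 and 2.7 in the TranspExer samples. *Hbb-bt* (chr7:103812524-103813996) had 1.76, 1 and 4 counts in the TranspCtrl samples, against 0, 0 and 1.3 in the TranspExer samples. The groups overlapped for *Hbb-bs*. For *Hbb-bt* they overlapped in the deposited counts but not in CPM of rounded counts, where the nearest samples were at 0.0513 CPM in TranspCtrl and 0.0497 CPM in TranspExer, and 25.1% of tested genes were lower in TranspExer with no overlap in CPM. All but 1 of these beta globin counts were at or under the floor.

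Several of these counts were not whole numbers, and the paired genes are near-identical copies between which the counting could split reads. The longest reading frames of *Hba-a1* and *Hba-a2* differed at 1 of 429 bases, and those of *Hbb-bs* and *Hbb-bt* at 1 of 444. The summed counts were therefore also compared. *Hba-a1* and *Hba-a2* together had 2, 4 and 5 counts in the TranspCtrl samples, against 4, 9 and 12 in the TranspExer samples. *Hbb-bs* and *Hbb-bt* together had 2, 1 and 4 counts in the TranspCtrl samples, against 1, 0 and 4 in the TranspExer samples. In a fit with no filter on low counts, neither sum passed the test, with adjusted p = 0.224 for the alpha pair and 0.851 for the beta pair (edgeR), and the unadjusted p of the alpha pair was 0.068. All 4 adult globin genes came to 48 counts over the 6 samples. The highest sample, TranspExer replicate 3, had 16 counts, or 0.768 CPM (here per total count of the sample, 95% exact binomial interval 0.439 to 1.25). The lowest, TranspCtrl replicate 1, had 4 counts, or 0.21 CPM (0.0573 to 0.538). Of the 7 embryonic and minor globin genes matched in the table, 6 had a count of 0 in every sample, and *Hbq1b* had 1 count, in TranspCtrl replicate 3.

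**Figure D1:**
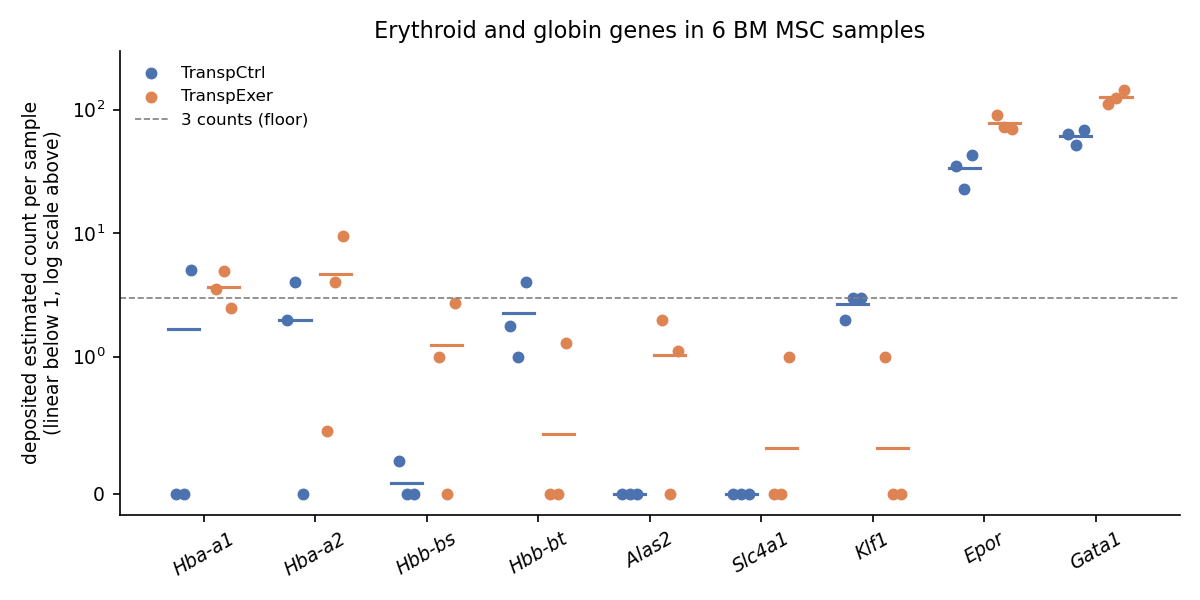
Deposited estimated counts of the 9 genes (y axis, linear below 1 and log scale above) in each TranspCtrl and TranspExer sample. Points are samples, short lines are group means, and the dashed line is the floor of 3 counts. The globin genes, *Alas2*, *Slc4a1* and *Klf1* lie below 10 counts in all samples, whereas *Epor* and *Gata1* lie between 23 and 144 counts, with every TranspExer sample above every TranspCtrl sample.

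*Alas2* (ENSMUSG00000025270, chrX:150547375-150570638) encodes the erythroid form of the first enzyme of heme synthesis. It had 0 counts in the 3 TranspCtrl samples and 2, 0 and 1.11 counts in TranspExer, all under the floor. *Apex2* and *Mir3620* overlap it on the opposite strand, and whether counting used strand is not stated, so reads of these genes cannot be told apart there. *Alas1*, which encodes the housekeeping form of the same enzyme, was expressed at 90.7 ± 7.71 TPM (a level per gene length, SD, n = 3) in TranspCtrl and 129.5 ± 5.15 TPM in TranspExer.

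The later steps of heme synthesis were expressed in both groups. Of the 15 heme synthesis genes tested, 4 rose in TranspExer and 0 fell, while 16.6% of all tested genes were higher and 15.5% lower at an adjusted p-value under 0.05. For *Alas1* the log2 fold change was 0.55 (SE 0.09, adjusted p = 0.0030, edgeR). *Alad*, the enzyme of the next step, rose by 0.81 on the log2 scale (SE 0.18, adjusted p = 0.0116), and the mitochondrial and porphyrin transporters *Abcb10* and *Abcb6* by 0.51 and 0.47 (adjusted p = 0.0326 and 0.0361). The 11 others, among them *Fech*, which inserts iron into heme, and *Uros*, *Urod*, *Cpox* and *Ppox*, did not pass the test. The median log2 fold change of the list was -0.03, against -0.02 over all tested genes. The count of 4 fell to 1, 2 and 1 without TranspExer replicates 1, 2 and 3. Calls over all genes fell as well in these fits, from 4884 to 2865, 2640 and 2679.

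**Figure D2:**
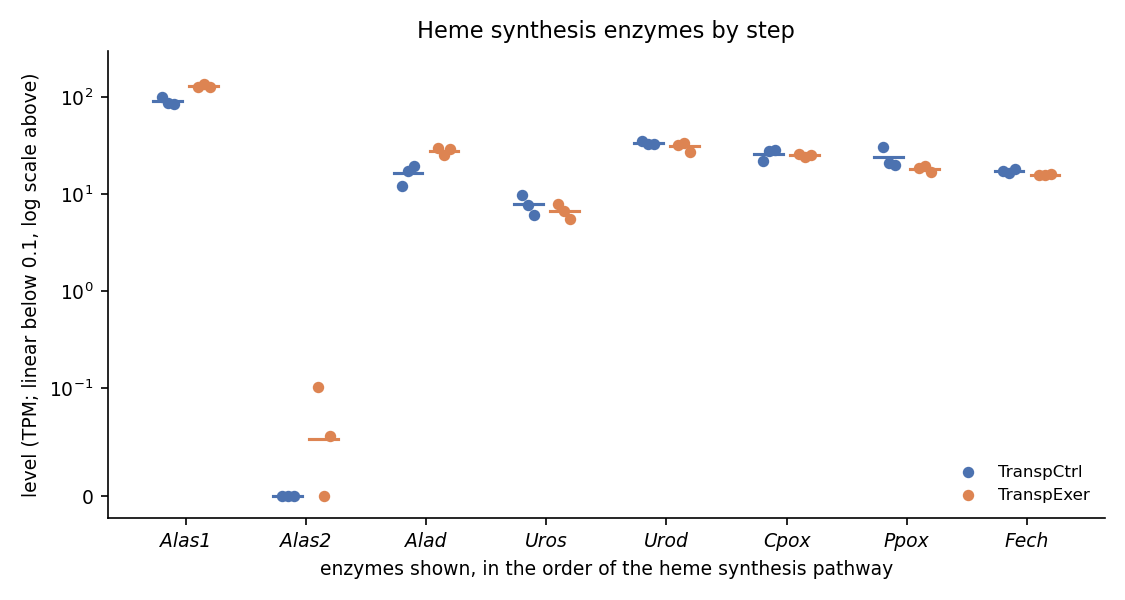
Levels in TPM (y axis, linear below 0.1 and log scale above) of enzymes of heme synthesis in pathway order, with *Alas1* and *Alas2* at the same first step. Points are samples and short lines are group means. *Alas1* lies near 100 TPM and *Alas2* at or below about 0.1 TPM in every sample, and the later enzymes shown lie between these levels in both groups.

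*Slc4a1* (ENSMUSG00000006574, chr11:102348824-102366203) encodes band 3, the anion exchanger of the red cell membrane. It had 0 counts in 5 samples and 1 count in TranspExer replicate 3. Some other genes of the red cell membrane were as low, but not all. *Add1*, *Epb41* and *Gypc* stood at 166.3, 75.0 and 26.9 CPM in TranspCtrl. Of the 20 genes on the list of membrane and skeleton genes, 6 had at most 3 counts in every sample. These included *Slc4a1* itself and the Rh-associated gene *Rhag*, and the blood group gene *Kel* and the transporter gene *Tspo2* were at 0 throughout. Of the 9 that were tested, 2 rose and 1 fell, beside 16.6% and 15.5% of all tested genes. *Sptb*, which encodes erythroid beta spectrin and is also used in muscle and brain, rose from 2.42 ± 0.497 CPM (SD, n = 3) to 8.50 ± 1.75 CPM, a log2 fold change of 1.81 (SE 0.22, adjusted p = 0.000875). *Dmtn*, which encodes the actin-bundling protein dematin, had a log2 fold change of 0.78 (SE 0.25) and an adjusted p of 0.0466, and it missed the threshold in 11 of the 13 alternatives. The water channel gene *Aqp1* fell from 11.4 ± 0.745 CPM to 5.22 ± 0.619 CPM, a log2 fold change of -1.13 (SE 0.13, adjusted p = 0.000735). With single samples left out, 1 to 4 genes of the list were higher. There was 1 without TranspCtrl replicates 2 or 3 or TranspExer replicates 1 or 3, and 4 without TranspCtrl replicate 1. Calls over all genes were 4372, 3884, 2865 and 2679 in the former fits and 6458 in the latter, against 4884 with all samples.

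*Klf1* (ENSMUSG00000054191, chr8:84901928-84905291), the red cell activator of the adult beta globin gene, had 2, 3 and 3 counts in the TranspCtrl samples, against 1, 0 and 0 in the TranspExer samples. The groups did not overlap, in counts or in CPM, as for 25.1% of tested genes in this direction, but all 6 counts were at or under the floor and no fold is given. When the filter on low counts was omitted, none of the 7 genes below it passed edgeR's test. Their adjusted p-values lay between 0.246 and 0.559, and 0 of the 7 had an unadjusted p under 0.05. The smallest unadjusted p was that of *Klf1*, 0.0777.

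*Gata1* (ENSMUSG00000031162, chrX:7959260-7978071) was detected in every sample and was higher in the TranspExer group. Its counts were 63, 52 and 69 in TranspCtrl and 112, 125 and 144 in TranspExer. Scaled to the library, these were 3.08, 2.67 and 3.21 CPM against 5.86, 7.26 and 7.15 CPM. Every TranspExer sample was above every TranspCtrl sample, which held in CPM for 27.2% of all tested genes. The log2 fold change was 1.18 (SE 0.16, adjusted p = 0.00143, quasi-likelihood test in edgeR, adjusted by Benjamini-Hochberg), or 2.26-fold, so *Gata1* was past both thresholds for DEGs, an adjusted p-value of 0.05 and a fold change of 2, as were 3.5% of tested genes in this direction and 5.28% in the other. In this design of 3 samples per group, a two-sided exact permutation test for 1 gene could not go below p = 0.1, so the adjusted p rests on the variance shared across genes. In bulk samples, fewer cells of a type and less RNA per cell cannot be told apart.

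Other hematopoietic transcription factor genes were higher in the same direction. Of the 16 tested on the list of erythroid transcription factors and cofactors, *Gata1* included, 9 rose and 0 fell, and 6 of the 9 by at least 2-fold. Of all tested genes 16.6% were higher, and 3.5% by at least 2-fold. The median log2 fold change of the list was 0.45. *Myb*, a factor of early progenitors, rose from 14.5 ± 1.75 CPM to 45.9 ± 0.813 CPM, a log2 fold change of 1.66 (SE 0.10, adjusted p = 5.25e-05). *Gata2*, which precedes *Gata1* in progenitors and stays on in mast cells, rose from 4.52 ± 1.04 to 12.1 ± 0.250 CPM (adjusted p = 0.000866). *Gfi1b*, a transcriptional repressor needed for red cell and megakaryocyte development, rose from 1.27 ± 0.0839 to 4.11 ± 0.713 CPM (adjusted p = 0.000931). *Nfe2*, a factor of megakaryocytes and red cells, rose from 16.1 ± 3.00 to 32.5 ± 0.952 CPM (adjusted p = 0.00135). *Zfpm1*, the partner of GATA1, had a log2 fold change of 0.78 (SE 0.27) with an adjusted p of 0.0558. With single samples left out, between 6 and 11 genes of the list were higher, 11 of them without TranspCtrl replicate 1. That last fit gave 6458 calls over all genes, against 4884 with all samples.

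*Epor* (ENSMUSG00000006235, chr9:21958897-21963506) was also low but detected in every sample, and higher in TranspExer. It had 35, 23 and 43 counts in the TranspCtrl samples, against 91, 73 and 70 in the TranspExer samples. These were 1.71, 1.18 and 2.00 CPM against 4.76, 4.24 and 3.48 CPM, with no overlap between the groups, as for 27.2% of tested genes in this direction. The log2 fold change was 1.34 (SE 0.24, adjusted p = 0.00492), or 2.54-fold. *Epor* and *Gata1* each kept an adjusted p under 0.05 when any single sample was left out, with log2 fold changes of 1.16 to 1.52 for *Epor* and 1.11 to 1.26 for *Gata1*. Without TranspCtrl replicate 1, the sample that stood apart, they were 1.37 (adjusted p = 0.000858, edgeR) and 1.19 (adjusted p = 0.000137).

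Both were lowly expressed genes. Per gene length, *Gata1* stood at 3.29 ± 0.269 TPM in TranspCtrl and 7.31 ± 0.959 TPM in TranspExer, and *Epor* at 1.94 ± 0.471 and 4.84 ± 0.687 TPM (SD, n = 3 each). *Gata1* was above *Epor* in each sample, with ratios of 1.67, 2.09 and 1.49 in TranspCtrl and 1.14, 1.59 and 1.91 in TranspExer. By mean TPM over the 6 samples, 29.1% of the tested genes were below *Gata1* and 22.7% below *Epor*. *Hba-a2* followed with 0.65 TPM and *Hba-a1* with 0.407 TPM. The levels of these globin genes overlapped each other, and *Hbb-bt*, *Hbb-bs*, *Klf1*, *Alas2* and *Slc4a1* came below them with 0.192, 0.108, 0.101, 0.0266 and 0.00378 TPM, in an order that counts this small cannot fix.

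Of the 17 tested genes of erythropoietin receptor signalling, *Epor* included, 5 rose and 5 fell, while 16.6% of all tested genes were higher and 15.5% lower. The median log2 fold change of the list was 0.08, against -0.02 over all tested genes. The gene of the ligand, *Epo*, had a count of 0 in all samples. *Bcl2l1*, which encodes the survival protein BCL-XL, rose from 60.3 ± 8.04 to 99.5 ± 2.41 CPM (log2 fold change 0.72, adjusted p = 0.00196), and *Lyn*, *Stat5b* and *Scrib* rose by 0.54, 0.30 and 0.33 on the log2 scale. *Tfr2*, which encodes a transferrin receptor that associates with EPOR, fell from 14.3 ± 1.47 to 3.81 ± 0.203 CPM, a log2 fold change of -1.91 (SE 0.13, adjusted p = 7.57e-05). *Socs3*, an inhibitor of JAK signalling, fell from 79.4 ± 4.60 to 38.8 ± 2.27 CPM (log2 fold change -1.03, adjusted p = 0.000131). The inhibitors *Cish* and *Socs2*, which STAT5 induces in many cells, changed by -0.72 and -0.46 on the log2 scale, and *Jak2* itself by -0.38 (adjusted p = 0.0252, 0.0186 and 0.0107). Without TranspExer replicates 2 or 3 the list had 2 higher genes in each case and 3 lower ones. Without TranspCtrl replicate 3 it had 3 lower genes. Over all genes these fits gave 2640, 2679 and 3884 calls, against 4884 with all samples.

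**Figure D3:**
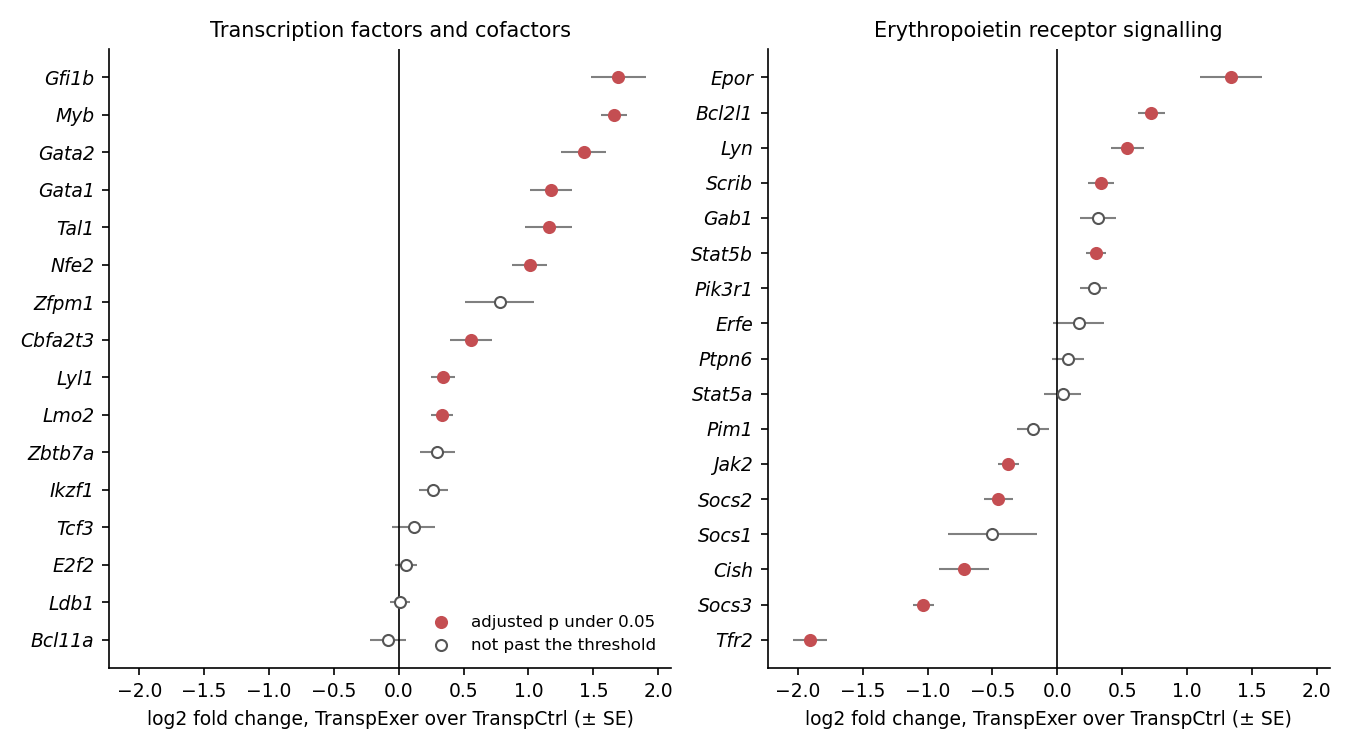
Log2 fold changes (x axis, TranspExer over TranspCtrl, bars are ± SE) of the tested genes of the lists of transcription factors (left) and erythropoietin receptor signalling (right). Filled points passed an adjusted p-value of 0.05. All 9 filled transcription factor genes lie above 0, whereas the filled signalling genes lie 5 above and 5 below 0.

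Of the 19 tested genes of late red cell maturation, 5 rose and 2 fell, beside the 16.6% higher and 15.5% lower of all tested genes, and the median log2 fold change was 0.18. *Tfrc*, the transferrin receptor that brings iron into dividing cells, rose from 235 ± 31.4 to 531 ± 18.1 CPM, a log2 fold change of 1.18 (SE 0.11, adjusted p = 0.000284). *Steap3*, an endosomal ferrireductase, rose by 0.77 on the log2 scale (adjusted p = 0.00433), and *Tal1*, also on the list of transcription factors, by 1.16 (adjusted p = 0.0026). *Isg20*, an exonuclease induced by interferon, fell from 17.0 ± 5.19 to 5.23 ± 0.973 CPM (log2 fold change -1.70, adjusted p = 0.00174), and *Prdx2*, the peroxiredoxin abundant in red cells, fell by 0.38 on the log2 scale (adjusted p = 0.0127). *Car1*, a carbonic anhydrase of mature red cells, was at 0 counts in all samples. *Prdx2* was not past the threshold without TranspExer replicates 2 or 3, which left 1 lower gene in each case. Those fits gave 2640 and 2679 calls over all genes, against 4884 with all samples.

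Over all these lists and without the 9 genes themselves, 72 genes were tested, of which 22 (30.6%) were higher and 8 (11.1%) lower, with a median log2 fold change of 0.18. The shares over all tested genes were the 16.6% and 15.5% given above, with 51.66% of all calls higher under TMM scaling and 40.46% higher under scaling by library size alone. Without TranspExer replicates 1, 2 and 3, the pathway genes gave 14, 13 and 12 higher calls, and without TranspExer replicates 2 and 3 they gave 5 lower calls each. Without TranspCtrl replicate 1 they gave 30 higher and 11 lower calls. Calls over all genes were 2865, 2640 and 2679 without TranspExer replicates 1, 2 and 3 and 6458 without TranspCtrl replicate 1, against 4884.

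Several lists of markers of other cell types also lay higher in TranspExer. The counts called in each marker list stand beside 16.6% higher and 15.5% lower of all tested genes. The markers of megakaryocytes and platelets summed to 299.7 to 348.3 CPM in TranspCtrl and 576 to 610.6 CPM in TranspExer, and 10 of the 12 tested rose, among them *Ppbp* (log2 fold change 1.26) but not *Pf4* (0.02, adjusted p = 0.948). The eosinophil markers summed to 54.9 to 70.0 and 154 to 164 CPM, with 9 of 10 higher and 1 lower. *Prg2* and *Ccr3* rose by 2.74 and 1.15 on the log2 scale. The lower one, *Il5ra*, fell from 13.6 ± 1.12 to 3.46 ± 0.185 CPM, a log2 fold change of -1.98 (adjusted p = 6.19e-05, edgeR). The markers of mast cells and basophils summed to 76.5 to 95.5 and 165.2 to 173.6 CPM, with 6 of 8 higher and 1 lower. *Kit*, which is also on the progenitor list, and the basophil protease gene *Prss34* rose by 1.74 and 1.20, whereas the mast cell chymase gene *Cma1* fell from 2.40 ± 0.275 to 0.932 ± 0.256 CPM (adjusted p = 0.00647). The mast cell protease genes *Tpsb2* and *Mcpt4*, below the filter, were at 0.629 and 0.517 CPM in TranspCtrl and 0.143 and 0.210 CPM in TranspExer. No marker of these 3 lists was at 0 in all samples. Stem and progenitor markers summed to 452.9 to 572.8 CPM in TranspCtrl and 2089 to 2192 CPM in TranspExer, with 8 of 11 higher. Much of the sum came from *Mpo* and *Elane*, with means of 1197 and 434.6 CPM in TranspExer. *Cd34*, *Flt3* and *Cd48* did not pass the test. Their log2 fold changes were 0.18, -0.72 and 0.015 (adjusted p = 0.185, 0.0638 and 0.952, edgeR).

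The erythroid marker list itself was the lowest of the 10, with 5.57 to 6.21 CPM in TranspCtrl and 11.1 to 13.0 CPM in TranspExer. Of its 13 genes in the table, 7 had at most 3 counts in every sample, 3 of these (*Tspo2*, *Car1* and *Kel*) were at 0 throughout, and 3 were tested. Of the 3, *Sptb* rose, and its level of 2.42 CPM in TranspCtrl and 8.50 CPM in TranspExer made up most of the difference between the sums. *Ank1* and *Hemgn*, an erythroid nuclear protein gene, did not pass the test, with log2 fold changes of 0.01 (adjusted p = 0.970) and 1.05 (adjusted p = 0.1004).

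Endothelial markers summed to 243.1 to 313 CPM in TranspCtrl and 843.9 to 920.9 CPM in TranspExer, and all 12 rose, among them *Cdh5* and *Eng*. Macrophage markers, among them *Csf1r* and *Cd68*, summed to 4632 to 5603 and 5729 to 5918 CPM, with 6 of 13 higher and 1 lower. Neutrophil markers, among them *Ngp* and *S100a9*, summed to 3156 to 4354 and 4158 to 4503 CPM. Of these 10, 2 were higher and 2 lower, near the 16.6% and 15.5% of all tested genes. B and plasma cell markers, among them *Ighm* and *Jchain*, summed to 3630 to 6078 and 781.7 to 814.2 CPM, with 7 of 10 lower. The stromal markers that define MSCs, among them *Col1a1* and *Col1a2*, were the highest list in both groups, with 14750 to 22850 and 13740 to 15050 CPM, and 1 of 14 was higher and 10 lower. The part of these cell types in the levels of *Gata1* and *Epor* was not tested.

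**Figure D4:**
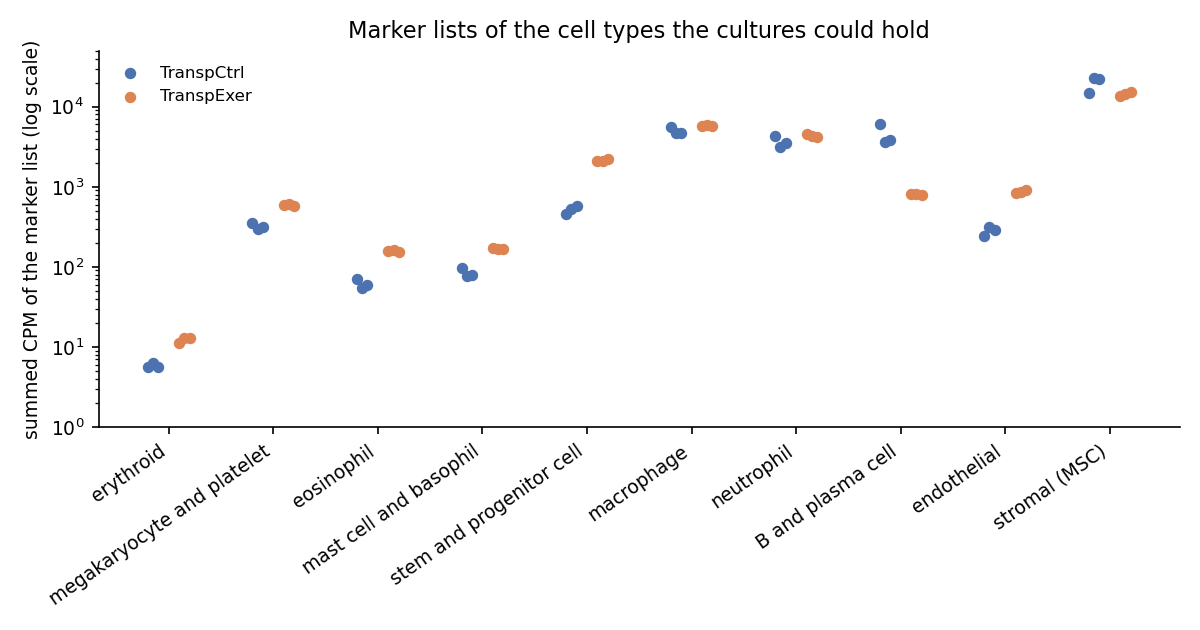
Summed CPM (y axis, log scale) of the marker list of each cell type in each sample, 3 points per group. The erythroid list is lowest, between 5.57 and 13.0 CPM, and the stromal list highest. The erythroid, megakaryocyte, eosinophil, mast cell and basophil, progenitor, endothelial and macrophage lists lie higher in every TranspExer sample than in any TranspCtrl sample, and the B and plasma cell list lower.

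The genes with patterns most like these were sought by Pearson's r of log2 CPM over the 6 samples, among 15189 other genes, as a description. For *Gata1* they were *Aatk*, *Scnn1a* and *Pi4k2a*, with r of 0.9959, 0.9947 and 0.9943, and 1374 genes (9.05%) had r above 0.9. For *Epor* they were *Nlrp12*, *Gm4739* and *Ano1*, with r of 0.9974, 0.9964 and 0.9948, and 821 genes (5.41%) had r above 0.9. *Gata1* and *Epor* had r = 0.9315 with each other, which placed *Gata1* at rank 416 for *Epor*. The 6 samples share the split between the groups, so high values of r are common among genes that differ between them.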

How the data were processed

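The data were RNA-Seq counts of BM MSCs from 3 TranspCtrl and 3 TranspExer samples, grouped by the sample labels. The authors deposited an expected count (an estimated count of reads, not normalized) and a length for each gene. Between 10.1% and 12.2% of values per sample were not whole numbers. The submitters' processing notes name the mm10 build. The aligner, the counting tool and the strand setting are not given in the sources used here, and the paper and the labels name different library kits.

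Counts were rounded and tested with edgeR 4.0.16 in R 4.3.3 (filterByExpr, TMM, quasi-likelihood test on group alone), and p-values were adjusted by Benjamini-Hochberg over the 15190 genes tested. CPM were scaled with the TMM factors. TPM were computed from the deposited counts and lengths. Globin copies were also summed. Coordinates are from GENCODE M21 and promoters from RefSeq.

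The 9 genes, the 7 pathway lists and the 10 marker lists were chosen with earlier results of these data known. Named genes are the 9, up to 4 genes of each pathway list with the smallest adjusted p-value among those under 0.05, the 2 genes of each marker list with the highest mean CPM, markers at 0 in all samples, and the 3 genes most like *Gata1* and *Epor*. All other genes named were chosen after their values were seen.

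The alternatives were DESeq2 1.42.0, 3 other normalizations, 2 other filters, the replicate number as a block, and each sample left out. Some genes of the lists are counted but not reported here by name.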

Additional observations from a re-analysis of the deposited data

How the results depend on the processing

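The higher levels of *Gata1* and *Epor* in TranspExer kept their direction and an adjusted p under 0.05 in all 13 alternatives, with log2 fold changes of 1.09 to 1.26 and 1.16 to 1.52. Refits were also listed for 20 genes, namely *Gata1*, *Epor* and the pathway genes with the smallest adjusted p-values. All had passed the main test, so their refits do not speak for other genes. Of their 260 refitted values, 240 stayed past the threshold, 20 did not and 0 reversed. The 20 values not past it were those of *Dmtn* (11 alternatives), *Abcb6*, *Abcb10* and *Alad*, of which the last 3 genes missed it when single samples were left out. The differences in mean CPM of the 7 low genes and the 2 globin sums rest on so few counts that single samples set their size. The *Hbb-bs* and *Hbb-bt* sum, at -0.028 CPM (TranspExer minus TranspCtrl), turned to 0.00917 without TranspCtrl replicate 3 and 0.0138 without TranspExer replicate 2. *Hba-a2*, at 0.143 CPM, was 0.029 without TranspExer replicate 3 and 0.253 without TranspExer replicate 1, and *Slc4a1* was 0 without TranspExer replicate 3.

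With single samples left out, 1315 to 3417 of all genes were higher and 1325 to 3041 lower, and pathway genes gave 12 to 30 higher and 5 to 11 lower calls. Heme synthesis gave 1 to 4 higher, membrane and skeleton 1 to 4 higher, receptor signalling 2 to 7 higher and 3 to 7 lower, and late maturation 1 to 3 lower calls. These fits have fewer samples. Membrane and skeleton gave 1 higher call with DESeq2, upper-quartile normalization or library size only, and receptor signalling 3 higher calls with library size only. The calls were 41.43% higher under upper-quartile normalization and 40.46% under library size only, against 51.66%.

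The replicate number as a block gave 4702 calls against 4884, with log2 fold changes of 1.17 for *Gata1* and 1.35 for *Epor*, and among the 20 genes it changed the call of *Dmtn* alone (adjusted p = 0.0877). The deviations of same-numbered samples from their group means had correlations of 0.0247, -0.0017 and 0.0416. The labels do not state a pairing, and with 3 samples per group these values cannot exclude one. Depth limits the globins, *Alas2*, *Slc4a1* and *Klf1*, for which a difference was not detectable at these counts.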
